A study of Rattus norvegicus with 6 samples.

Results

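miR-146a and miR-146b are microRNAs (miRNAs), short RNAs that repress messenger RNAs through base pairing of their seed, the bases 2 to 8 from the 5′ end. They were followed here in RSC96, a rat Schwann cell line, as every sequence that the deposited files list under the hairpins rno-mir-146a and rno-mir-146b, which are 2 of the 821 hairpins listed. The study sequenced small RNA from 3 libraries of cells kept for 48 h in high glucose and from 3 control libraries kept for 48 h in low glucose. The labels give no glucose concentration, name no genetic change in either group, and give all libraries the same cell line, so that a single line stands for Schwann cells in both groups. The series title concerns exosomes, and the labels do not say whether vesicles or whole cells gave the RNA. They state nerve as the tissue, while their extraction text names retina.

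miR-146a and miR-146b come from separate genes and belong to 1 seed family. In human and mouse immune cells and others, the transcription factor NF-κB induces miR-146a after Toll-like receptor or interleukin-1 receptor signalling. Both miRNAs repress the adaptor proteins TRAF6 and IRAK1 of that same pathway, which makes miR-146a a negative feedback on inflammation. A hairpin precursor is cut into a 5p and a 3p arm, 1 of which is usually kept by the Argonaute protein while the other is degraded. The ends left by the cutting enzymes and by later trimming or tailing vary, and the resulting length and end variants of an arm are called isomiRs.

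The mature sequences are shown because the comparison rests on telling apart 2 arms that are almost the same. They come from RefSeq on the GRCr8 assembly, both hairpins were found there, and the deposited hairpin sequences were identical to it. Capitals mark the seed.
miR-146a-5p: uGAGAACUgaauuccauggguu
miR-146b-5p: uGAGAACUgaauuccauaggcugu
miR-146a-3p: aCCUGUGAaguucaguucuuu
miR-146b-3p: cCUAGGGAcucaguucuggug
The mature 5p arm of miR-146a lies at chr10:28350053-28350074 on the minus strand and that of miR-146b at chr1:255144874-255144897 on the plus strand. Over the 22 nt that both 5p arms have, 20 bases are the same, and they differ by G18A and U21C, with the base of miR-146a first and positions counted from 1 at the 5′ end. miR-146b-5p is 2 nt longer. No other of the 724 mature rat miRNAs in the RefSeq table has the seed of the 5p arms, whereas the 3p arms have different seeds.

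The hairpins show where the arms were read from, with the annotated 5p arm and then the annotated 3p arm in capitals.
miR-146a hairpin: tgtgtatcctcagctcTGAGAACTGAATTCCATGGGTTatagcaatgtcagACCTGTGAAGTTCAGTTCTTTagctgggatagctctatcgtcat
miR-146b hairpin: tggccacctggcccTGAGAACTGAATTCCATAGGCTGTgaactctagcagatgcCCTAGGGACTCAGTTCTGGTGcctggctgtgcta
Positions given below are counted from 1 at the 5′ end of these hairpins unless stated otherwise. The hairpin of miR-146a is 95 nt long with its 5p arm at 17 to 38, and that of miR-146b is 88 nt long with its 5p arm at 15 to 38.

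The single sequences that the results turn on, here called tags, are the pair with the most counts in each arm and a rare pair of miR-146b-5p, printed as the files give them, in DNA letters. Capitals mark the bases after position 17 of the 5p arm, which is where the arms and their variants differ. The last pair has a base that the hairpin lacks, T24G in the first and T22G in the second, with the hairpin's base first and positions counted from the tag's 5′ end.
miR-146a-5p, 21 nt: tgagaactgaattccatGGGT
miR-146a-5p, 22 nt: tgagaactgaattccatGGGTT
miR-146b-5p, 24 nt: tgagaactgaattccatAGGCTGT
miR-146b-5p, 23 nt: tgagaactgaattccatAGGCTG
miR-146b-5p, 24 nt, T24G: tgagaactgaattccatAGGCTGG
miR-146b-5p, 23 nt, T22G: tgagaactgaattccatAGGCGG

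The libraries differed in depth. High glucose libraries held 963706 to 1354456 counts and low glucose libraries 114615 to 148143, a 9.31-fold difference between the group means, and a sequence is listed in a library only with 2 or more reads. Rare tags therefore had a better chance of being listed in high glucose. Nothing in the labels says that libraries came from separate cultures, so a p-value here speaks only of the spread among libraries, which could be technical.

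miR-146b-5p was one of the most abundant miRNAs of these libraries and was 1.37-fold lower in high glucose. It held 22193, 22885 and 32066 counts in high glucose, against 4185, 5232 and 3236 counts in low glucose. As counts scaled to library size (CPM, with edgeR's TMM scaling), this was 22973, 18690 and 26239 CPM in high glucose, against 29140, 35064 and 28984 CPM in low glucose, with means of 22634 ± 3786 CPM in high glucose and of 31063 ± 3466 CPM in low glucose (SD, n = 3 libraries each). All 3 high glucose libraries lay below all 3 low glucose libraries. Among the arms of a library it ranked 11, 13 and 9 by level in high glucose, against 5 in each low glucose library. Its log2 fold change was -0.46 (standard error 0.17), and it passed edgeR's quasi-likelihood test narrowly (Benjamini-Hochberg adjusted p = 0.0471 over 297 tested arms). If whole cells gave the RNA, fewer cells that make a miRNA and less of it per cell cannot be told apart in these bulk libraries.

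miR-146a-5p was present at a lower level and did not pass the test. It held 1300, 2141 and 2259 counts in high glucose, against 280, 311 and 235 counts in low glucose. This came to 1346, 1748 and 1848 CPM in high glucose, against 1950, 2084 and 2105 CPM in low glucose, with means of 1648 ± 266 CPM in high glucose and of 2046 ± 84.3 CPM in low glucose (SD, n = 3 libraries each). The groups did not overlap here either, with the highest high glucose library close below the lowest low glucose one. The log2 fold change was -0.31 (standard error 0.18, edgeR adjusted p = 0.153).

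Of the 297 tested arms, 63.6% were called, 22.6% lower (67) and 41.1% higher (122) in high glucose. With upper quartile scaling the split was 93 lower and 91 higher. All high glucose libraries lay below all low glucose libraries in 25.9% of the arms and above them in 45.8%. A call in the lower direction, or groups that lie apart, was thus frequent among all arms, and the tested arms had a median log2 fold change of 0.68. The call of miR-146b-5p held without high glucose replicate 3 (log2 fold change -0.61, adjusted p = 0.0226) and was lost when any of the other 5 libraries was left out. Its adjusted p was then 0.0512 without high glucose replicate 1, 0.0555 without high glucose replicate 2, and 0.149, 0.439 and 0.0837 without low glucose replicates 1, 2 and 3. The value without low glucose replicate 2 was the smallest, at a log2 fold change of -0.22.

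**Figure D1:**
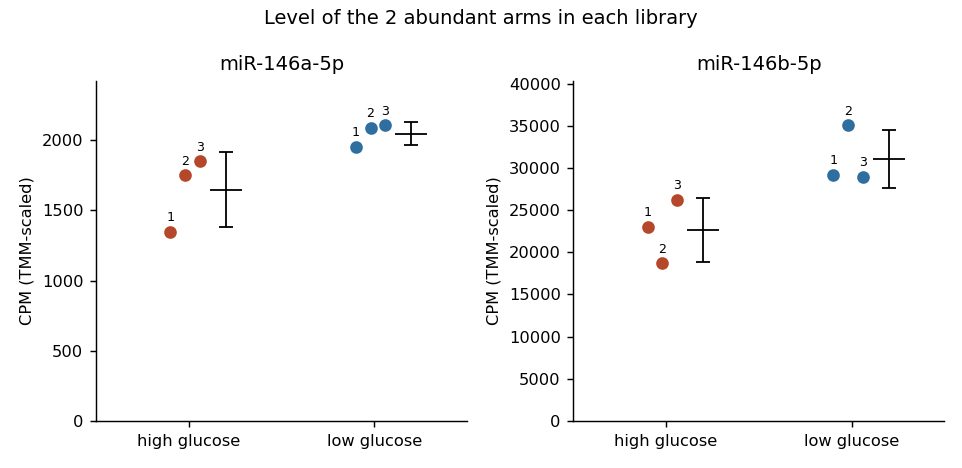
TMM-scaled CPM (linear axes from 0) of miR-146a-5p and miR-146b-5p in each library, with high glucose on the left and low glucose on the right of each panel. Numbers are the replicate numbers, and the black bar and whiskers are the mean and SD of 3 libraries. In both panels all high glucose points lie below all low glucose points, by the smallest margin for miR-146a-5p (1848 against 1950 CPM).

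The ratio of the 2 arms to each other overlapped between the groups. A read covers a whole mature miRNA, so the counts of the arms can be set side by side without scaling by length, although the 2 sequences need not be captured with equal efficiency. For each count of miR-146a-5p there were 17.1, 10.7 and 14.2 counts of miR-146b-5p in high glucose, against 14.9, 16.8 and 13.8 in low glucose, with means of 14.0 ± 3.20 in high glucose and of 15.2 ± 1.54 in low glucose (SD, n = 3 each). The groups overlapped, and the log2 ratio differed by -0.14 (exact two-sided permutation test, p = 0.7, for which 3 against 3 libraries cannot give a p under 0.1). Without high glucose replicate 2, the library with the lowest ratio, the difference was 0.041.

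The 3p arms were nearly absent. miR-146a-3p had no listed count in any of the 6 libraries. miR-146b-3p had 8, 31 and 22 counts in high glucose, against none in low glucose, which was too few to test. Its share of the counts of both arms of the hairpin was 0.0360% in high glucose replicate 1 (exact 95% binomial interval 0.0156 to 0.0710%), 0.135% in replicate 2 (0.0919 to 0.192%) and 0.0686% in replicate 3 (0.0430 to 0.104%). At the pooled high glucose share, the low glucose libraries would have held 3.31, 4.13 and 2.56 counts of it, spread over several tags that each need 2 reads to be listed. A difference was therefore not detectable at this depth. Of the 61 counts, which fell on 7 tags, 9 matched the hairpin without a mismatch, and no tag was listed in all 3 high glucose libraries.

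Within miR-146a-5p, a tag shorter than the annotated arm held a larger share of the counts in each high glucose library than in any low glucose library. The arm had 49 distinct tags, and the 9 that reached 1% of its counts in a group made up 95.4% of its counts in high glucose, against 93.6% in low glucose. The 21 nt tag, which ends 1 base before the annotated 3′ end, had 502, 1228 and 959 counts in high glucose, against 62, 80 and 48 in low glucose. That was 38.6, 57.4 and 42.5% of the counts of the arm in high glucose, against 22.1, 25.7 and 20.4% in low glucose. It was the most abundant tag in each high glucose library and came second in each low glucose library.

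The 22 nt tag, which is the annotated mature sequence, showed the reverse. It had 451, 556 and 756 counts in high glucose, against 143, 141 and 124 in low glucose, or 31.4 ± 4.72% of the arm in high glucose, against 49.7 ± 3.89% in low glucose (SD, n = 3 each). In high glucose there were 1.11, 2.21 and 1.27 counts of the 21 nt tag for each count of the 22 nt tag, against 0.434, 0.567 and 0.387 in low glucose. The shorter tag outnumbered the annotated one in all 3 high glucose libraries and in none of the low glucose ones.

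As a single sequence among 1497 tested tags, the 21 nt tag rose 2.32-fold in high glucose (log2 fold change 1.22, standard error 0.30, edgeR adjusted p = 0.00708). Of all tested tags, 52.2% were called, 34.9% higher (523) and 17.3% lower (259), a split of 426 and 399 with scaling to total counts and of 451 and 343 with upper quartile scaling. The 22 nt tag had a log2 fold change of -0.50 (standard error 0.21, adjusted p = 0.0712) and did not pass, and none of the other 7 named tags passed. This result of the 22 nt tag depended on the scaling. It passed as lower with total counts (-1.10, edgeR adjusted p = 0.00241) and with upper quartile scaling (-0.90, adjusted p = 0.00724). It also passed with counts thinned to the smallest library (-0.92) and without high glucose replicate 3 (-0.73, adjusted p = 0.0273), and not in 10 other settings. The call of the 21 nt tag was lost without low glucose replicate 1 (log2 fold change 1.14, adjusted p = 0.0504) and with scaling to total counts (0.61, adjusted p = 0.0904). Scaling to total counts moved the median log2 fold change of all tags to -0.06, from 0.54 with TMM, so that fold changes of tags carry this shift, while shares within an arm do not.

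A test of each tag relative to its own arm as a whole, the tag included, edgeR's diffSpliceDGE, does not depend on that scaling. It was added after the data were seen, and called 17.2% of 1452 tags, 7.23% higher and 9.99% lower within their arm. The 21 nt tag of miR-146a-5p was 2.01-fold higher within its arm and missed the threshold (adjusted p = 0.0533), and 0 of 9 tags of miR-146a-5p were called, with 1 higher and 1 lower at an unadjusted p under 0.05. Leaving out 1 library moved its adjusted p between 0.0105 and 0.362.

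Within miR-146b-5p the difference ran the other way, with a larger share of the full-length tag in high glucose. The arm had 138 distinct tags, and the 6 that reached 1% of its counts in a group made up 95.8% of its counts in high glucose, against 94.3% in low glucose. The 24 nt tag, the annotated mature sequence, had 16443, 16237 and 21191 counts in high glucose, against 2211, 2657 and 1775 in low glucose. It made up 74.1, 71.0 and 66.1% of the arm in high glucose, against 52.8, 50.8 and 54.9% in low glucose, and the groups did not overlap. The exact 95% binomial interval was 65.6 to 66.6% in the lowest high glucose library and 53.1 to 56.6% in the highest low glucose one, which covers counting error only.

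The 23 nt tag, which lacks the last U, had 2790, 3778 and 6706 counts in high glucose, against 1213, 1637 and 997 in low glucose. This was 16.7 ± 4.17% of the arm in high glucose, against 30.4 ± 1.22% in low glucose (SD, n = 3 each). For each count of the 23 nt tag there were 5.89, 4.30 and 3.16 counts of the 24 nt tag in high glucose, against 1.82, 1.62 and 1.78 in low glucose. The 24 nt tag was the more abundant of the pair in all 6 libraries, by a wider margin in each high glucose library.

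Of the 22 tags of miR-146b-5p that were tested, 8 were called lower with edgeR and 0 higher, where 17.3% of all tested tags were called lower and 34.9% higher. Of the 8, 5 reached the minimum for testing (10 counts at the median library size, in 3 libraries) through low glucose only, and so were picked for being high there. Among the 11 tags that reached it in both groups, 3 were called lower, and 2 within their arm. At an unadjusted p under 0.05, 1 was higher, and DESeq2 and limma-voom each called 1 higher, the 24 nt tag. Within their arm 7 of 22 were called lower and 0 higher, with 1 higher at an unadjusted p under 0.05. Over all arms 9.99% of the tags were called lower within their arm and 7.23% higher. The 23 nt tag fell by 0.83 on the log2 scale (standard error 0.25, adjusted p = 0.0196), and was 1.80-fold lower within its arm (adjusted p = 0.0206). The quasi-likelihood call was lost without high glucose replicate 1 (adjusted p = 0.0549) and without low glucose replicates 1, 2 and 3 (0.0755, 0.116 and 0.0686), and the call within the arm likewise, with adjusted p-values up to 0.261. The 21 nt tag, which ends at position 35, was a small part of the arm at 0.122, 0.551 and 0.178% in high glucose, against 1.17, 1.03 and 0.834% in low glucose. It was 3.80-fold lower within its arm (adjusted p = 0.000277), a call that was lost without low glucose replicate 1 (adjusted p = 0.0519).

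The 24 nt tag itself did not pass edgeR's tests. Its log2 fold change was 0.44 (standard error 0.18, adjusted p = 0.0584) with TMM, passed with DESeq2 (0.43, adjusted p = 0.0321) and was -0.15 with total counts, so that its direction as a single sequence depended on the scaling. Within its arm it was 1.34-fold higher (adjusted p = 0.311). A tag that makes up most of an arm has little room to differ from the arm.

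**Figure D2:**
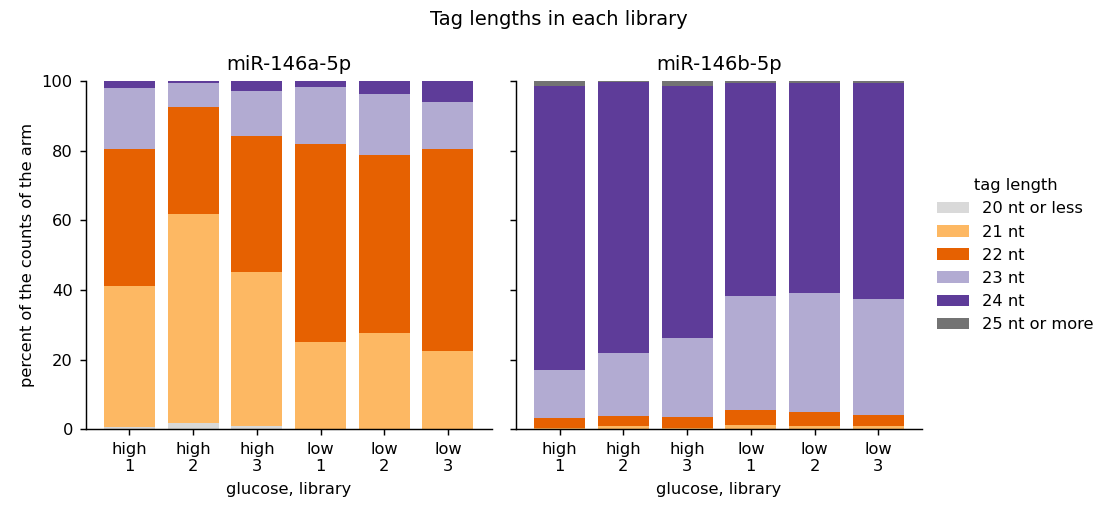
Percent of the counts of miR-146a-5p (left) and miR-146b-5p (right) by tag length, for high glucose libraries 1 to 3 and then low glucose libraries 1 to 3. In miR-146a-5p, tags of 21 nt took 40.3 to 59.9% in high glucose, against 22.6 to 27.7% in low glucose. In miR-146b-5p, tags of 24 nt took 72.4 to 81.6% in high glucose, against 60.4 to 61.9% in low glucose.

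The 3′ ends of the 2 arms thus differed between the groups in opposite directions. Counting all tags of an arm, those ending before the annotated last base made up 43.4, 64.9 and 47.5% of miR-146a-5p in high glucose, against 26.4, 28.6 and 23.4% in low glucose. For miR-146b-5p they made up 16.7, 21.8 and 25.9% in high glucose, against 38.4, 39.3 and 37.6% in low glucose. High glucose replicate 2 had the shortest miR-146a-5p of all libraries, and high glucose replicate 1 had the fewest shortened ends of miR-146b-5p.

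The mean tag length of miR-146a-5p was 21.8, 21.4 and 21.7 nt in high glucose, against 21.95, 21.97 and 22.03 nt in low glucose. That of miR-146b-5p was 23.81, 23.74 and 23.71 nt in high glucose, against 23.55, 23.56 and 23.58 nt in low glucose. The differences were -0.34 nt and 0.19 nt, each with groups apart. Each of these shares and lengths gave an exact two-sided permutation p of 0.1, the smallest that 3 against 3 libraries allow, and an adjusted p of 0.138 over 18 measures, so none passed a threshold of 0.05.

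A single measure set the arms against each other, as the log2 ratio of the 24 nt to the 23 nt tag of miR-146b-5p plus that of the 21 nt to the 22 nt tag of miR-146a-5p. It was 2.65 ± 0.624 in high glucose, against -0.33 ± 0.209 in low glucose (SD, n = 3 each). The measure was put together after both ratios had been seen, with signs that make them add up, so it describes them and adds no support.

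Length differences were frequent among other miRNAs too. Of 115 arms with 20 or more counts in every library, 32.2% had shorter tags and 17.4% longer tags in all high glucose libraries than in all low glucose libraries. The median difference over these arms was -0.07 nt, and the middle 50% of them lay between -0.26 and 0.06 nt. miR-146a-5p was the 20th from the shortened side and miR-146b-5p the 14th from the lengthened side, so both lay outside the middle 50%.

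**Figure D3:**
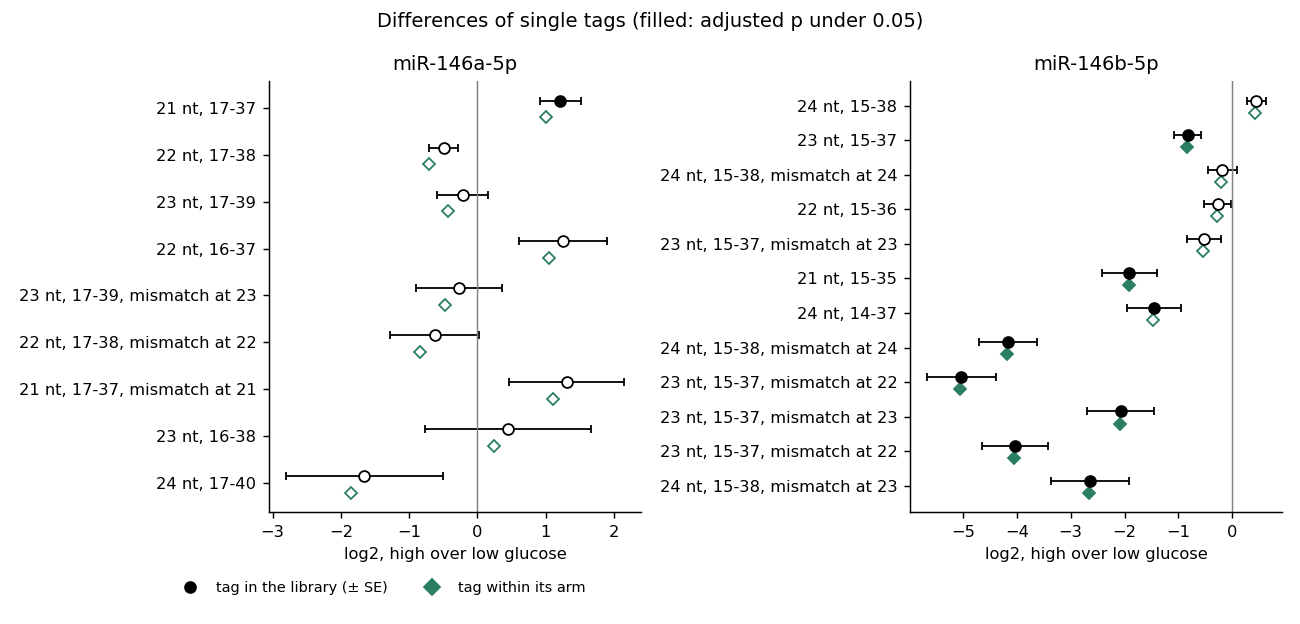
Log2 differences, high over low glucose, of single tags of miR-146a-5p (left) and miR-146b-5p (right), labelled by length, hairpin positions and the tag position of any mismatch. Circles with standard errors are fold changes of the tag in the library, diamonds are differences relative to the arm as a whole, and filled symbols passed an adjusted p of 0.05. On the left only the 21 nt tag is filled, at 1.22, and on the right all filled symbols lie below 0, of which the 5 mismatched tags reached the minimum for testing through low glucose only.

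Bases at the 3′ end that the hairpin does not encode were listed for both arms. The most abundant mismatched tag was miR-146b-5p with T24C, at 4684 counts, which made up 5.61, 5.27 and 4.59% of the arm in high glucose, against 5.66, 7.13 and 4.67% in low glucose. These ranges overlapped, and the tag had a log2 fold change of -0.19 (standard error 0.27, adjusted p = 0.585). Mismatched counts as a whole were a smaller share in high glucose, at 9.06, 8.36 and 8.09% of miR-146b-5p against 12.7, 12.4 and 9.33% in low glucose, and at 8.08, 7.47 and 8.06% of miR-146a-5p against 10.4, 12.5 and 10.2% in low glucose. All high glucose libraries lay below all low glucose ones in both arms, which held for 22.6% of the 115 arms compared, while 21.7% had all of them above. For miR-146a-5p this direction turned with tags of 10 or more reads only, where the share was 5.40 percentage points higher in high glucose. For miR-146b-5p the groups no longer lay apart in that setting, at a difference of -2.09 points (exact permutation p = 0.4).

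Some rare mismatched tags of miR-146b-5p held a smaller share of the arm in high glucose. They reached the minimum for testing through low glucose only, where they were high, so they are given as a description and their calls are no support. The T24G tag had 6, 10 and 15 counts in high glucose, against 41, 39 and 14 in low glucose, where the whole arm was far less deeply sequenced. It made up 0.0270, 0.0437 and 0.0468% of the arm in high glucose, against 0.980, 0.745 and 0.433% in low glucose. The 23 nt T22G tag had 2, 8 and 4 counts in high glucose, against 29, 38 and 13 in low glucose. The 23 nt T22C tag had 7, 3 and 7 counts in high glucose, against 17, 21 and 11 in low glucose. These 3 tags were named for their values after these were seen. In each, the shares of all high glucose libraries lay below those of all low glucose libraries.

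The 8 lower tags also included the 24 nt tag from position 14 to 37 (log2 fold change -1.46, adjusted p = 0.0323), which missed the threshold within the arm (adjusted p = 0.0912). The 23 nt tag with G23C and the 24 nt tag with G23T, also called lower, likewise reached the minimum through low glucose only.

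A mismatched G as the last base was also less frequent in other miRNAs. It ended 0.0270, 0.0743 and 0.0530% of miR-146b-5p counts in high glucose, against 1.17, 0.917 and 0.494% in low glucose. Over all other arms together it ended 0.118 ± 0.0106% in high glucose, against 0.287 ± 0.103% in low glucose (SD, n = 3 each). In miR-146a-5p it ended 0, 0.327 and 0.841% in high glucose, against 2.86, 2.89 and 0% in low glucose, which rests on few counts and overlapped. Last bases of T that the hairpin lacks were fewer in miR-146b-5p, at 0.220 ± 0.0279% in high glucose, against 0.146 ± 0.0347% in low glucose, than in all other arms, at 3.53 ± 0.183% in high glucose, against 2.39 ± 0.112% in low glucose. What part depth or the handling of the libraries had in these rare tags was not tested.

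The 5′ end, which sets the seed, was nearly fixed. Tags starting at another base than the annotated one made up 5.92, 3.46 and 5.14% of miR-146a-5p in high glucose, against 2.86, 3.54 and 3.83% in low glucose. Their share of miR-146b-5p was 1.71, 1.07 and 1.94% in high glucose, against 1.03, 1.24 and 1.30% in low glucose. The groups overlapped in both arms (exact permutation p = 0.3 each). Most of these tags began 1 base earlier. The 22 nt tag of miR-146a-5p from position 16 to 37 held 2.30 ± 0.789% of the arm in high glucose, against 1.08 ± 0.306% in low glucose (log2 fold change 1.25, standard error 0.64, adjusted p = 0.127).

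Few reads could not be assigned to 1 of the 2 arms. The files list 7 tags under both hairpins, and none of the tags was listed under any hairpin other than these. They made up 0.643 to 2.76% of the counts of miR-146a-5p and 0.0382 to 0.258% of those of miR-146b-5p over all libraries. The reads of such a tag appear to be split between the hairpins, so these shares understate the reads that could belong to either arm. A fit that left out the sequences shared between arms everywhere, which tested 242 arms with a median log2 fold change of 0.39, gave -0.39 for miR-146a-5p (adjusted p = 0.0895) and -0.53 for miR-146b-5p (adjusted p = 0.0189).

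More distinct tags were listed for miR-146b-5p in the deeper high glucose libraries as deposited, and fewer at equal library depth. miR-146b-5p had 83, 84 and 95 tags in high glucose, against 41, 45 and 33 in low glucose. With all libraries thinned to 114497 reads and the minimum of 2 reads applied again, the mean over 20 draws was 28.3, 21.7 and 25.9 tags in high glucose, against 40, 39 and 33 in low glucose. miR-146a-5p had 8.80, 9.05 and 9.40 tags in high glucose at that depth and 16.3, 15.6 and 12 in low glucose. Thinning put all high glucose libraries below all low glucose libraries for both arms, but it matched the library totals and not the reads of the arms. miR-146b-5p then had 2618.7, 2022.4 and 2674.2 reads in high glucose, against 3873.2, 4050.0 and 3236 in low glucose, and miR-146a-5p likewise had fewer in high glucose, so the tag numbers do not compare equal arm depths.

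The fold change of both arms changed with the tags that were counted. With only the most abundant sequence of every arm, miR-146a-5p stood at a log2 fold change of 0.85 (adjusted p = 0.0289) and miR-146b-5p at 0.078 (adjusted p = 0.722), both of the opposite sign to the values over all tags. Which sequence counted as the most abundant was decided by counts summed over all 6 libraries, most of them from the deeper high glucose libraries. For miR-146a-5p it was the 21 nt tag, which came second in each low glucose library. A value on the high glucose side is thus partly built into that choice, and its adjusted p is no support. That setting also tested fewer arms, 236, and moved their median log2 fold change to 0.88. The parts of the tags, of this choice and of the scaling in the change were not told apart. With alignments without a mismatch only, the values were -0.20 (adjusted p = 0.380) and -0.36 (adjusted p = 0.0854), and the call of miR-146b-5p was lost.

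**Figure D4:**
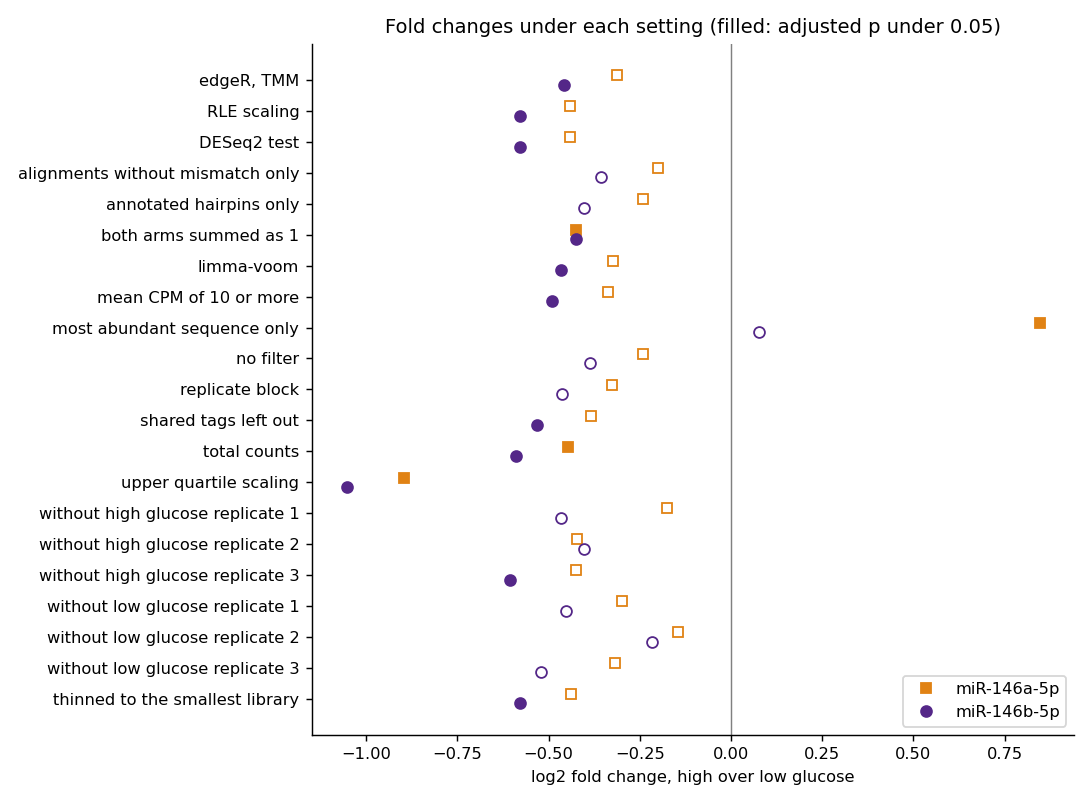
Log2 fold changes, high over low glucose, of miR-146a-5p (squares) and miR-146b-5p (circles) under each setting, with filled symbols where the adjusted p was under 0.05. All values lie below 0, except those from the most abundant sequence only, at 0.85 and 0.078.

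Scaling moved all arms together. Upper quartile scaling shifted the median of all tested arms by -0.56 on the log2 scale, DESeq2 size factors by -0.12 and total counts by -0.11. miR-146b-5p was lower and passed under each of these, at -1.05, -0.58 and -0.59 (adjusted p = 0.00230, 0.0360 and 0.0136). miR-146a-5p had values of -0.90, -0.44 and -0.45 (adjusted p = 0.00443, 0.0553 and 0.0420), so that it passed under 2 of the 3.

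The arms whose levels followed the miR-146 arms most closely over the 6 libraries were sought by the root mean square difference of centred log2 CPM. For miR-146b-5p the closest were miR-26a-5p, at a difference of 0.119, let-7i-5p at 0.120, miR-26b-5p at 0.176 and miR-93-5p at 0.177. For miR-146a-5p they were miR-26b-5p at 0.138, miR-22-3p at 0.158, miR-29a-3p at 0.178 and miR-320-3p at 0.179. The 2 arms were not each other's closest, at a difference of 0.225 and with ranks of 12 and 11. All of these points share the same 6 libraries and their scaling.

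miRNAs tied to NF-κB and Toll-like receptor signalling, by induction or through their targets, were called at about the share of all arms. Of the 20 on a list of them, 19 had counts, 16 had enough counts to be tested, and 5 were called higher and 5 lower in high glucose, where 63.6% of all tested arms were called. The median log2 fold change of the 16 was -0.26, against 0.68 over all tested arms. With upper quartile scaling 3 were called higher and 8 lower, where 91 of all 297 tested arms were called higher and 93 lower. With total counts 4 were called higher and 5 lower, where 112 of the 297 were called higher and 72 lower.

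miR-155-5p, which in mouse and human macrophages is induced by the same receptors as miR-146a but promotes inflammation and is named for that role, had 149, 123 and 20 CPM in high glucose, against 42, 80 and 54 CPM in low glucose. It did not pass (log2 fold change 0.72, standard error 0.75, adjusted p = 0.435), and high glucose replicate 3 lay below all other libraries. miR-21-5p, which in human and mouse cells is induced by STAT3 and NF-κB, was the most abundant of the list and was 2.43-fold lower in high glucose (adjusted p = 0.000956).

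Those called higher were led by miR-222-3p, which with miR-221-3p promotes proliferation of rat Schwann cells after nerve injury, at 22092, 14960 and 16335 CPM in high glucose, against 2124, 1944 and 2374 CPM in low glucose. It was 8.29-fold higher (adjusted p = 2.73e-05), and its cluster partner miR-221-3p 1.87-fold (adjusted p = 0.00201). miR-221-3p did not pass with upper quartile scaling (log2 fold change 0.32, edgeR adjusted p = 0.0978). miR-125a-5p, which in human cells targets the NF-κB inhibitor TNFAIP3, was 5.24-fold higher (adjusted p = 0.000137), and let-7e-5p, which in mouse macrophages targets Toll-like receptor 4, was 4.17-fold higher (adjusted p = 0.000430). miR-125b-5p was 1.39-fold higher (adjusted p = 0.0217), but had a log2 fold change of -0.12 with upper quartile scaling (adjusted p = 0.554). Its call was also lost with DESeq2 size factors (edgeR adjusted p = 0.0781) and with total counts (0.0525). miR-222-3p, miR-125a-5p and let-7e-5p were called higher with each of these scalings.

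Those called lower were miR-16-5p, 2.98-fold (adjusted p = 0.00331), miR-181a-5p, 2.94-fold (adjusted p = 0.00195), miR-21-5p, miR-181b-5p, 1.76-fold (adjusted p = 0.0133), and let-7i-5p. miR-181b in mouse endothelium represses the importin that carries NF-κB into the nucleus. let-7i-5p, which in human bile duct cells targets Toll-like receptor 4, had 12862, 10417 and 12401 CPM in high glucose, against 16105, 18082 and 17959 CPM in low glucose, and was 1.46-fold lower (adjusted p = 0.0121). All 5 were called lower with TMM, upper quartile, DESeq2 size factor and total count scaling.

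**Figure D5:**
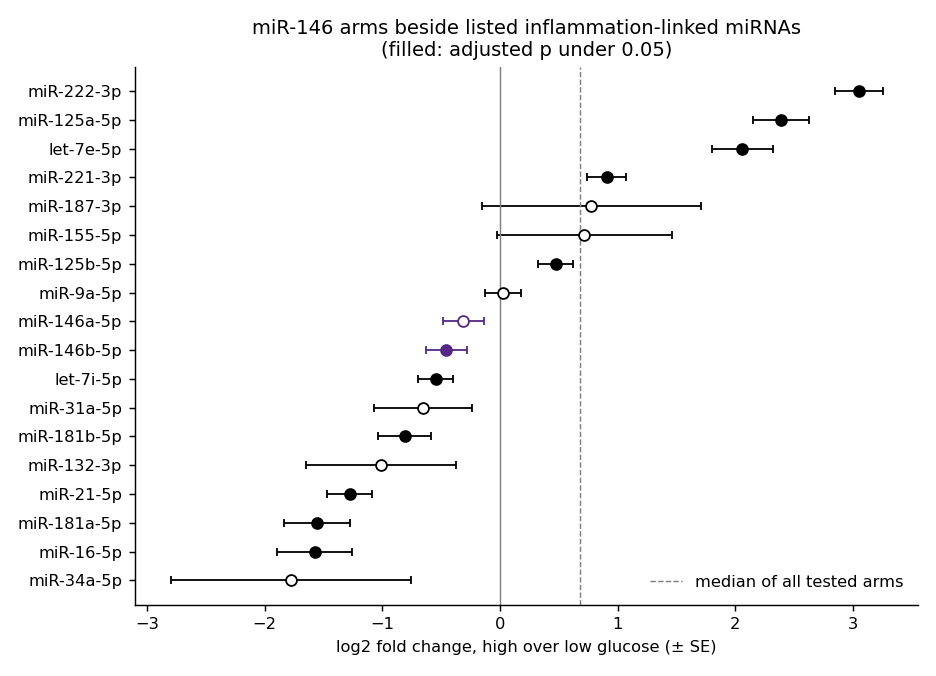
Log2 fold changes, high over low glucose, with standard errors, of the 16 tested miRNAs linked to NF-κB and Toll-like receptors (black) and of both miR-146 5p arms (violet), with filled symbols where the adjusted p was under 0.05. The miR-146 arms, at -0.31 and -0.46, lie between the members called higher and those called lower, and below the dashed median of all tested arms at 0.68.

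miR-146a is also abundant in leukocytes, so markers of other cells were looked at. Of 5 leukocyte markers, 3 were tested and 0 passed edgeR's test, with 0 at an unadjusted p under 0.05 and 0 by DESeq2 or limma-voom. Their summed level was 40.1 to 239 CPM in high glucose, against 90.5 to 143 CPM in low glucose, and the defining marker miR-142-3p was at 0 in all libraries. miR-142-5p of the same hairpin had 31, 0 and 9 counts in high glucose, against 3, 0 and 6 in low glucose, and miR-223-3p had 20, 17 and 12 counts in high glucose, against 0, 2 and 2 in low glucose. Scaled to library size, miR-142-5p had 32.1, 0 and 7.36 CPM in high glucose, against 20.9, 0 and 53.7 CPM in low glucose. miR-223-3p had 20.7, 13.9 and 9.82 CPM in high glucose, against 0, 13.4 and 17.9 CPM in low glucose. The groups overlapped for both. Of 4 erythroid markers, 2 were tested and both were called lower in high glucose, where 63.6% of all tested arms were called, 22.6% lower. The summed level of the erythroid markers was 762 to 954 CPM in high glucose, against 3237 to 6395 CPM in low glucose. miR-451-5p led them, at 316 ± 49.4 CPM in high glucose, against 2700 ± 1085 CPM in low glucose (SD, n = 3 each).

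Of 6 retina markers, miR-182-5p, miR-96-5p and miR-124-3p were at 0 in all libraries. Only 1, miR-183-5p, was tested, and it was called lower in high glucose, as were 22.6% of all tested arms. miR-211-5p had 49, 18 and 62 counts (50.7, 14.7 and 50.7 CPM) in high glucose, against 2, 0 and 0 (13.9, 0 and 0 CPM) in low glucose. miR-204-5p had 33 counts (27.0 CPM) in 1 high glucose library, against 0 in low glucose. Both had too few counts to test. The summed level of the list overlapped, at 57.2 to 72.8 CPM in high glucose, against 48.7 to 89.6 CPM in low glucose. Of 3 muscle markers 0 had enough counts to be tested, and miR-133a-3p was at 0 in all libraries. miR-206-3p had 0, 59 and 3 counts (0, 48.2 and 2.45 CPM) in high glucose. miR-1-3p had 0, 10 and 12 counts (0, 8.17 and 9.82 CPM) there, and both were at 0 in low glucose. The part of erythroid or other cells or fluids in the difference of the miR-146 arms was not tested.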

How the data were processed

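Small RNA was sequenced in 6 libraries of RSC96 cells, 3 in high and 3 in low glucose for 48 h, grouped and numbered by their titles. The deposited values are raw read counts per distinct sequence and hairpin, per the file headers, with hairpin positions and any mismatch. Reads of a sequence under several hairpins appear to be split among them, with 963706 counts for 963290 reads in high glucose replicate 1. Of tools, cutadapt 1.9.3 and Novoalign 3.02.12 are named, per the submitters' processing notes, with no role stated, and the aligned genome build is not given in the sources used here. In the deposited counts, sequences are 16 to 40 nt long, with 2 or more reads and at most 1 mismatch.

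Counts were summed per arm (932, of which 362 are from annotated hairpins) and per sequence (9522), with 41 hairpin sequences under several names each taken as 1. All arms or all sequences were fitted together in R 4.3.3 with edgeR 4.0.16 (quasi-likelihood test, TMM, filterByExpr with a minimum count of 10, robust, Benjamini-Hochberg at 0.05), and a call is an adjusted p under that value. limma 3.58.1 and DESeq2 1.42.0 served as alternatives. The fits were tested on simulated data. For measures within a library, groups were set against each other with an exact two-sided permutation test in Python 3.11.15 with SciPy 1.17.1, pandas 2.3.3 and NumPy 2.4.6, and figures were drawn with matplotlib 3.10.9. Other scalings, filters, tools, tag subsets, thinned counts, a replicate block and fits without each library were tried.

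Named were the 4 arms, their tags with 1% or more of the arm in a group, the 4 arms most like each 5p arm, the called (at most 4 each way by size) and 4 most abundant members of the NF-κB list, and miRNAs that share the seed. Other tags of miR-146b-5p and miR-155-5p were named outside this rule. The members and lists were chosen with earlier results of these data known. Libraries of 1 group differed beyond counting noise. The chi-square per degree of freedom was 138 to 195 between high glucose libraries and 4.21 to 11.4 between low glucose libraries. Each library was kept as its own replicate, although such a spread could be technical. Without molecular identifiers, binomial intervals reflect counting error alone.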

Additional observations from a re-analysis of the deposited data

How the results depend on the processing

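For miR-146a-5p, the log2 fold change of -0.31 became 0.85 with the most abundant sequence only (adjusted p = 0.0289), a sequence picked mostly by high glucose counts. The fold change over all tags passed with total counts (-0.45, adjusted p = 0.0420) and upper quartile scaling (-0.90, adjusted p = 0.00443). Both 5p arms summed gave -0.42 (adjusted p = 0.0480), a sum made up mostly of miR-146b-5p. Without each library in turn it lay between -0.42 and -0.15. For miR-146b-5p, the value of -0.46 became 0.078 with the most abundant sequence only (adjusted p = 0.722). Its call was lost without mismatched alignments (-0.36, adjusted p = 0.0854), with annotated hairpins only (-0.40, adjusted p = 0.0557) and with no filter (-0.39, adjusted p = 0.166), and it lay between -0.61 and -0.22 without each library in turn. The cause was not tested. The 3p arms had too few counts for any alternative.

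No pairing by replicate number showed in the counts, as the deviations of same-numbered libraries correlated at 0.044, -0.0007 and -0.028. Such correlations cannot tell whether the libraries were prepared in pairs. With the replicate number as a block, the values were -0.33 for miR-146a-5p (adjusted p = 0.180) and -0.46 for miR-146b-5p (adjusted p = 0.102).

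The 189 called arms became 123 with annotated hairpins only and 125 with thinned counts, where fewer arms were tested, and 137 to 171 without each library. The 782 called tags became 488 with thinned counts and 580 to 759 without each library, and the 250 tags called within their arm became 128 to 235. The difference between the groups in the log2 ratio of the arms lay between -0.30 and 0.041 without each library. With the most abundant sequence only, picked mostly by high glucose counts, this difference was -0.73 (exact permutation p = 0.1). The mismatched share of miR-146a-5p differed by 5.40 percentage points, in the opposite direction, among tags of 10 or more reads only, a minimum that removes more tags at low depth.

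Signs of single tags that did not pass the test also changed. The 23 nt tag of miR-146a-5p at 17 to 39 lay between -0.56 and 0.013 without each library, and that at 16 to 38 was -1.24 with limma-voom, -0.34 with the replicate block and -0.11 with total counts. The 24 nt tag of miR-146b-5p was -0.15 with total counts. Its T24C form was 0.0047 with no filter and between -0.39 and 0.061 without each library. Depth limits the low glucose libraries most, where tags with 1 read are not listed.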
